A study of Mus musculus with 2 samples.

Results

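Heme oxygenase 1 (Hmox1) and 9 antioxidant and iron-handling genes, Nqo1, Slc7a11, Gclm, Srxn1, Txnrd1, Fth1, Ftl1, Slc40a1 and Nfe2l2, were chosen by symbol, and all 10 were found among the 32285 genes of the count matrix. They were followed by cell class in 2 scRNA-seq libraries of mouse pancreatic tumors, 1 per group. The iIRE library came from residual tumors taken on day 3 after insufficient irreversible electroporation, in which electric pulses between needles kill only part of the tumor. The control library came from tumors without pulses, which the study's results call untreated and its methods describe as sham needle insertion. Both groups carried KPC cells, a single mouse pancreatic cancer line, in the pancreas of C57BL/6 hosts, males aged 5 to 7 weeks, treated at a tumor length of 7 to 9 mm. Whole tumors were dissociated without a sort, and how many mice a library held is not given in the sources used here. With 1 library per group no test between the groups is possible, so differences are given with 95% intervals that cover counting error only, and differences between mice cannot be told apart from the treatment.

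The matrix held 19433 iIRE barcodes with 222153118 UMIs and 18538 control barcodes with 247105192 UMIs, of which 18827 and 17812 cells passed the filters. Libraries were told apart by the barcode suffix. Depth per cell was lower in the iIRE library, while the study's text gives the opposite order, so each direction below holds only as far as the barcode endings are matched to the groups as numbered in the labels. Cells were gated on marker genes, none of them a member. The gates gave 53 iIRE and 59 control macrophages with Gpnmb, a lysosomal glycoprotein of lipid-laden macrophages, 81 and 85 with Lyve1, a marker of tissue-resident macrophages, and 758 and 747 other macrophages. A further 9 iIRE and 9 control macrophages held both Gpnmb and Lyve1, too few for a class of their own. The gates also gave 125 iIRE and 122 control neutrophils, and 9404 and 9306 tumor cells. The 4 Y-linked genes of the male hosts summed to 0.964 CPM in iIRE and 0.972 CPM in control tumor cells, against 80.6 to 125 CPM in the macrophage classes, which places few host cells in the tumor gate. Of the cells past the filters, 8029 iIRE and 7172 control cells met no gate and are not described. Of these, 7064 iIRE and 6173 control cells had at least 2 UMIs of the tumor marker Cdkn2a. Among them 5587 and 5005 held 2 or more macrophage genes. The tumor class therefore covers only part of the cells with Cdkn2a.

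Hmox1 opens the heme ring and releases iron, carbon monoxide and biliverdin. Its transcription is held down by BACH1, which leaves the gene when heme binds it, and driven by NRF2 (the product of Nfe2l2), which escapes KEAP1 when electrophiles or oxidants modify that protein. Gclm (a subunit of the enzyme that starts glutathione synthesis), Slc7a11 (the cystine importer xCT), Srxn1 (which repairs over-oxidized peroxiredoxins), Txnrd1 (thioredoxin reductase) and Nqo1 (a quinone reductase) are further NRF2 targets. Iron set free from heme is stored in ferritin, built of the Fth1 and Ftl1 chains, or leaves the cell through ferroportin (Slc40a1). In macrophages these genes serve the clearance of red cells and dying cells.

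NRF2 binds antioxidant response elements, of which TGACNNNGC is the core and TGANNNNGC a looser form that includes it. Matches are shown for 4 members that were high in the same macrophages (below), from the RefSeq promoters of GRCm38.p6 (250 bases before to 50 after a start), on the strand of each gene with the match in capitals. TGACNNNGC, on either strand, occurs in 12.4% and TGANNNNGC in 41.3% of all 32851 promoters, and TGATGNAAN, the composite site bound by ATF4 and C/EBP factors, in 3.95%. The Gclm match (chr3:122245403-122245451, plus strand) and the Txnrd1 match (chr10:82859094-82859142, plus strand, at the second of 3 listed starts) are TGACNNNGC read on the other strand. The Srxn1 match (chr2:152105459-152105507, plus strand) is TGANNNNGC, and a TGACNNNGC match 29 bases after its start is not printed. TGANNNNGC occurs there on the other strand as well, at -57, in lower case within the printed stretch, and at -158, not printed. The Slc7a11 match (chr3:50443651-50443699, minus strand) is TGATGNAAN and not an antioxidant response element, while TGANNNNGC occurs at 3 other places of that promoter. A further TGATGNAAN match on the other strand, at -48, lies in lower case within the printed stretch. Fth1 and Ftl1, high in the same cells, had neither antioxidant motif in their listed promoters. Nfe2l2, which was not higher in those cells, has a TGACNNNGC match at -240 relative to its start, not printed. Hmox1 and Slc40a1 had no listed promoter and could not be searched. A match is a description of these letters and no proof of binding.
Gclm: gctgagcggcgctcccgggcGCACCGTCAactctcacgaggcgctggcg
Srxn1: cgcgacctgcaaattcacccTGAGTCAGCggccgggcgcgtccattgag
Txnrd1: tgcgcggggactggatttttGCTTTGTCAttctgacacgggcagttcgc
Slc7a11: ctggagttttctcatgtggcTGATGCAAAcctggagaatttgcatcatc

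Ferritin and ferroportin are also set after transcription, by iron regulatory proteins that bind an RNA hairpin, the iron-responsive element, when iron is scarce and hold back translation. This hairpin was found in the leader of Fth1 (chr19:9982732-9982761, plus strand), Ftl1 (chr7:45459778-45459807, minus strand) and Slc40a1 (chr1:45925464-45925493, minus strand) of GENCODE M21 on mm10. Each holds the loop CAGTGN, in capitals below, closed by 5 base pairs. Such a hairpin lies in the first 150 bases of 0.371% of 21835 protein coding genes. The RNA levels reported here therefore need not follow the protein of these 3 genes.
Fth1: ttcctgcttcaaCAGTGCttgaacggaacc
Ftl1: gtcttgcttcaaCAGTGTttgaacggaaca
Slc40a1: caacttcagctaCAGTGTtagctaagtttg

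On mm10 the NRF2-linked members lie at chr8:107388225-107403206 (Nqo1, minus strand), chr3:49892526-50443614 (Slc7a11, minus), chr3:122245557-122270732 (Gclm, plus), chr2:152105516-152111376 (Srxn1, plus) and chr10:82833951-82897712 (Txnrd1, plus), and Nfe2l2 at chr2:75675513-75704641 (minus). The iron members lie at chr19:9980598-9985098 (Fth1, plus), chr7:45457944-45459884 (Ftl1, minus) and chr1:45908068-45926523 (Slc40a1, minus). Slc7a11, Gclm and Txnrd1 each overlap an antisense gene of the matrix, and Txnrd1 also Eid3 on its own strand. How reads in these overlaps were counted was not examined.

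Hmox1 (ENSMUSG00000005413, chr8:75093621-75100589, plus strand of mm10) was lower in the iIRE library in each of the 8 classes with at least 30 cells per library, and by far the most in the Gpnmb macrophages. In fibroblasts and osteoclast-like cells the direction turned without the 1 control cell with most Hmox1 (log2 0.58 and 0.22). In the Gpnmb macrophages, Hmox1 stood at 213 CPM (interval 168 to 266) in iIRE and 2859 CPM (2707 to 3018) in control. CPM here is the UMIs of the gene scaled to the summed UMIs of the class. The log2 ratio was -3.75 (-4.10 to -3.42), or 13.4-fold lower in iIRE, the second lowest of 2283 genes with at least 50 UMIs in that class. It was -2.84 where cells with markers of another class were kept and -2.74 where Lyve1 macrophages needed 2 Lyve1 UMIs. In Lyve1 macrophages it was 405 CPM in iIRE and 1021 CPM in control, a log2 ratio of -1.33 (-1.56 to -1.12), and in other macrophages 342 CPM and 587 CPM, a log2 ratio of -0.78 (-0.87 to -0.69). These 3 classes and the tumor cells, at 61.0 CPM in iIRE and 80.1 CPM in control (log2 -0.39, -0.43 to -0.35), had intervals below 0. In neutrophils Hmox1 stood at 216 CPM in iIRE and 303 CPM in control (41 and 57 UMIs), and the interval, -1.11 to 0.11, included no difference.

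**Figure D1:**
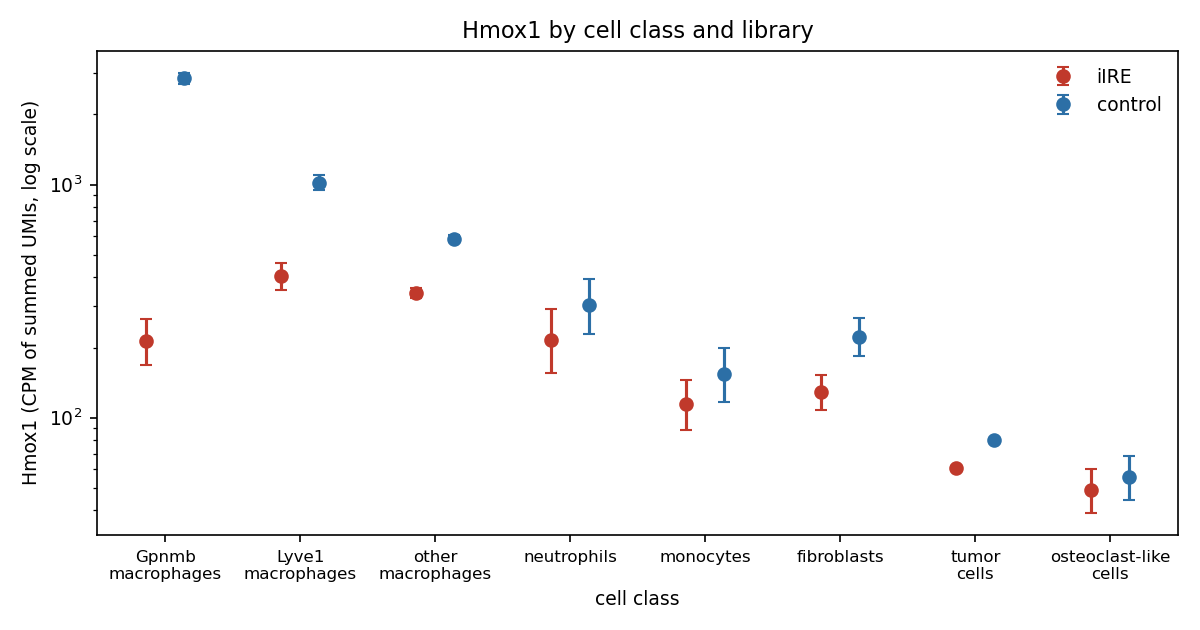
Hmox1 in CPM of summed UMIs (log axis) in 8 cell classes, iIRE left of control, with exact Poisson 95% intervals. The control Gpnmb macrophages stand above every other point at 2859 CPM, and the iIRE Gpnmb macrophages at 213 CPM lie below the iIRE Lyve1 (405 CPM) and other macrophages (342 CPM).

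The order of the 3 macrophage classes differed between the libraries. In the iIRE library Hmox1 was highest in Lyve1 macrophages, and Gpnmb macrophages had 0.623 times the level of other macrophages (log2 -0.68, -1.03 to -0.35). In the control library Gpnmb macrophages came first, at 4.87 times the level of other macrophages (log2 ratio 2.19 to 2.38), and Lyve1 macrophages second, at 1.74 times. The 9 cells of each library with both Gpnmb and Lyve1 stood above all 3 classes in iIRE, at 1539 CPM (1308 to 1800). In control they stood at 3033 CPM (2679 to 3421), where the interval includes the level of the Gpnmb macrophages. The 9 iIRE cells held 157 Hmox1 UMIs, 79.6% of them in 2 cells, against 78 UMIs in the 53 iIRE Gpnmb macrophages. The low place of Gpnmb macrophages in iIRE therefore holds only for those without Lyve1 UMIs, as gated here. Gpnmb macrophages held 3.66% of the Hmox1 UMIs of all iIRE macrophages and 24.4% of those of control macrophages, at 6.19% and 7.02% of the macrophage UMIs. Over all macrophages Hmox1 was 360 CPM in iIRE and 823 CPM in control, a log2 ratio of -1.19. Holding the 4 macrophage classes at the control shares gave -1.21.

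Single cells were uneven. Of the Gpnmb macrophages, 60.4% of iIRE cells (46.0 to 73.6) and 81.4% of control cells (69.1 to 90.3) had at least 1 Hmox1 UMI. The median cell stood at 105 CPM in iIRE and 917 CPM in control, and the highest at 1817 CPM and 17032 CPM, so the 2 groups overlapped in their lower range while the upper range was filled by control cells. Detection scaled to 2000 UMIs per cell was 33.9% in iIRE and 66.1% in control Gpnmb macrophages, which had median depths of 6181 and 7090 UMIs. In other macrophages the median cell had none in either library, and the tenth of cells with most Hmox1 held 83.3% of the UMIs in iIRE and 84.7% in control. Lyz2, Ctss and Laptm5, which mark macrophages, stood in tumor cells at 0.271% (iIRE) and 0.200% (control) of their macrophage level. Hmox1 stood there at 16.9% and 9.72%. The tumor gate had left out cells with more than 1 macrophage gene. These shares therefore hold for the gated cells only and are no measure of free RNA in the libraries. Among T/NK cells, 0 of 24 iIRE cells, which allows a share of cells with a UMI of up to 12.5%, and 1 of 63 control cells had an Hmox1 UMI.

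**Figure D2:**
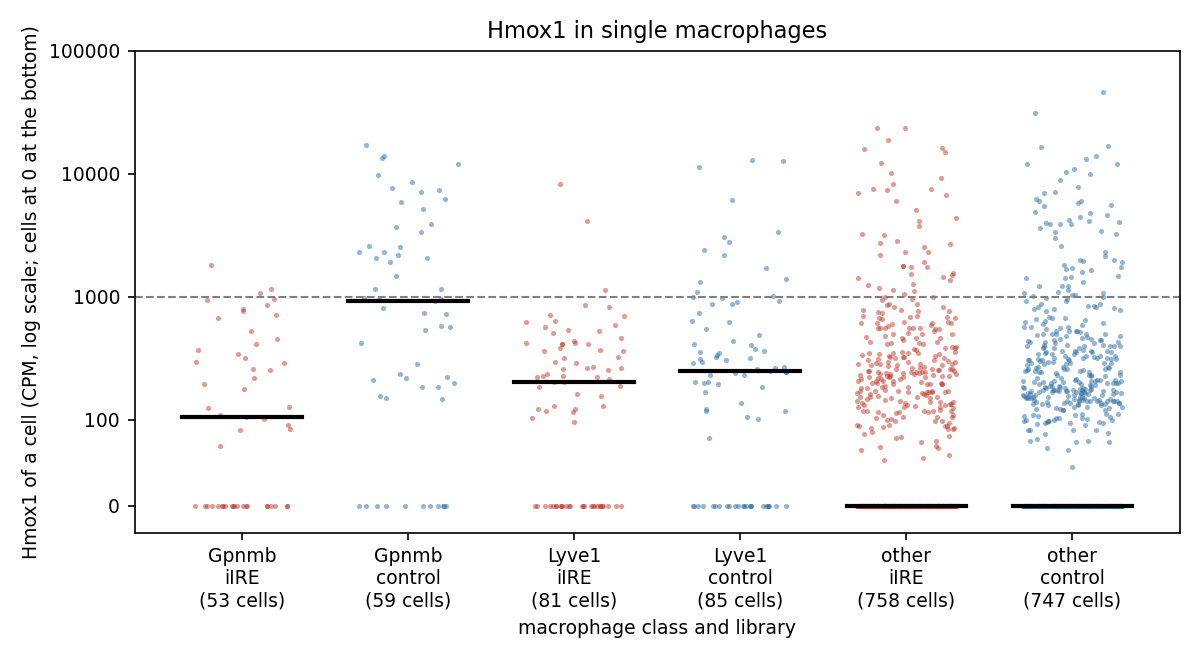
Hmox1 in CPM of each cell (log axis, cells without a UMI at the bottom) in 3 macrophage classes, iIRE left of control, with the median as a bar and a dashed line at 1000 CPM. Control Gpnmb macrophages reach 17032 CPM with a median of 917 CPM, while iIRE Gpnmb macrophages end at 1817 CPM with a median of 105 CPM.

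Most other members were lower in iIRE Gpnmb macrophages too. Of the 8 members with at least 50 UMIs, 7 were at least 1.2-fold lower in iIRE and none higher, 6 of them with an interval below 0, where 20.6% of all genes were that much lower (9.51% with such an interval) and 36.7% higher (17.1%). The members' median log2 ratio was -1.23, against 0.12 over all 2283 genes, so ratios in this class are read against a shift of 0.12. Gclm had 41.0 CPM in iIRE and 189 CPM in control (15 and 87 UMIs, log2 -2.21, -3.11 to -1.41). Srxn1 had 46.4 CPM in iIRE and 168 CPM in control (log2 -1.85), and Txnrd1 87.4 CPM and 231 CPM (log2 -1.40). With cells holding markers of another class kept, Gclm gave -1.05 and Txnrd1 -0.54. These are NRF2 targets of the glutathione, peroxiredoxin and thioredoxin systems. The ferritin chains were high in this class in both libraries, Fth1 at 24182 CPM in iIRE and 50568 CPM in control (log2 -1.06) and Ftl1 at 18827 CPM and 28694 CPM (log2 -0.61). Ftl1 shares 80.6% of its 31-base words with the copy Ftl1-ps1, so reads may be split between them. Slc7a11, at 46.4 CPM in iIRE and 82.7 CPM in control, had an interval up to 0.03. Nfe2l2, the transcript of NRF2 itself, did not share this pattern, at 243 CPM in iIRE and 224 CPM in control (log2 0.12). Slc40a1 had 4 and 12 UMIs, and Nqo1 none in either library.

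Monocyte markers moved with the class. The 6 monocyte genes summed to 541 CPM in iIRE and 157 CPM in control Gpnmb macrophages (none at 0 in either). The 10 neutrophil genes summed to 371 CPM in iIRE and 54.4 CPM in control (5 and 6 at 0) and the 7 osteoclast genes to 557 CPM and 163 CPM, but 121 of these iIRE UMIs, counted in both lists, were of Mmp9 in 4 cells. Without Mmp9 the neutrophil genes had 15 UMIs in iIRE and 23 in control, and the osteoclast genes 83 and 73. The 7 dendritic genes summed to 10.9 CPM in iIRE and 124 CPM in control, where 48 of the 57 control UMIs were of Ccr7 in 1 cell. The part of these lists in the result was not tested. An alternative added after seeing the data left out macrophages holding Ly6c2, Ccr2 or Plac8, which are only part of the monocyte genes. Hmox1 was then 287 CPM in 31 iIRE cells and 3469 CPM in 46 control cells.

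The Hmox1 UMIs sat in few cells, so macrophages with at least 1000 CPM and 3 UMIs of Hmox1 were set apart. This threshold was chosen after the values were seen, cuts a range and does not define a cell type. Such Hmox1-rich cells made up 51 of 901 iIRE macrophages (5.66%, 4.24 to 7.38) and 107 of 900 control macrophages (11.9%, 9.85 to 14.2), and held 70.1% and 84.8% of the Hmox1 UMIs. By class they were 3 of 53 iIRE and 26 of 59 control Gpnmb macrophages (5.66% and 44.1%), 3 of 81 and 13 of 85 Lyve1 macrophages (3.70% and 15.3%), 43 of 758 and 64 of 747 other macrophages (5.67% and 8.57%), and 2 of 9 and 4 of 9 macrophages with both Gpnmb and Lyve1. At this threshold the iIRE share was about the same in the Gpnmb and other macrophages, on 3 Gpnmb cells (interval 1.18 to 15.7). The control share was higher in the Gpnmb than in the Lyve1 and other macrophages. At 2000 CPM, 33 iIRE and 73 control macrophages were above the line, none of the 53 iIRE and 22 of the 59 control Gpnmb macrophages among them. At 500 CPM the macrophages above it were 99 in iIRE and 152 in control.

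Within each library the other members were higher in these cells than in the remaining macrophages. In the iIRE library, 6 of 7 members tested were at least 1.2-fold higher, all 6 with an interval above 0, where 20.2% of all 8294 genes were that much higher (5.32% with such an interval) and 49.5% lower. In the control library 7 of 8 were higher, all 7 with an interval above 0, and Nfe2l2 was lower, where 17.2% of 8424 genes were higher (8.43% with such an interval) and 51.5% lower. The members' median log2 ratio was 1.89 in iIRE and 1.99 in control, against -0.25 and -0.28 over all genes. The counts were again 6 in iIRE and 7 in control at thresholds of 500, 2000 and 5000 CPM, where the share over all genes was not computed.

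Gclm had 340 CPM in Hmox1-rich and 41.9 CPM in remaining iIRE macrophages (log2 3.02), and 267 CPM and 28.0 CPM in control macrophages (log2 3.25), a rank of 3 from the top among all genes in both libraries. Srxn1 had 218 CPM in Hmox1-rich and 31.6 CPM in remaining iIRE macrophages, and 254 CPM and 33.1 CPM in control macrophages. These carry the matches printed above, as do Txnrd1, at 397 CPM and 107 CPM in iIRE and 401 CPM and 95.9 CPM in control, and Slc7a11, at 183 CPM and 43.6 CPM in iIRE and 204 CPM and 55.5 CPM in control. Of the iron genes that carry the hairpin, Fth1 reached 39287 CPM in Hmox1-rich and 11314 CPM in remaining iIRE macrophages, and 51558 CPM and 13737 CPM in control macrophages. Ftl1 reached 25862 CPM and 8666 CPM in iIRE, and 28995 CPM and 7973 CPM in control. Ferroportin was the gene with the highest ratio of all in control: Slc40a1 had 96.3 CPM in Hmox1-rich and 3.29 CPM in remaining control macrophages (74 and 19 UMIs, log2 4.87, 4.13 to 5.68), with a UMI in 23 of the 107 Hmox1-rich cells and the single highest cell holding 23.0% of their UMIs. In iIRE it had 71.6 CPM and 3.73 CPM, on only 20 and 21 UMIs and 6 Hmox1-rich cells. Nfe2l2 was an exception, at 218 CPM in both sets of iIRE cells and at 173 CPM in Hmox1-rich and 275 CPM in remaining control macrophages.

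**Figure D3:**
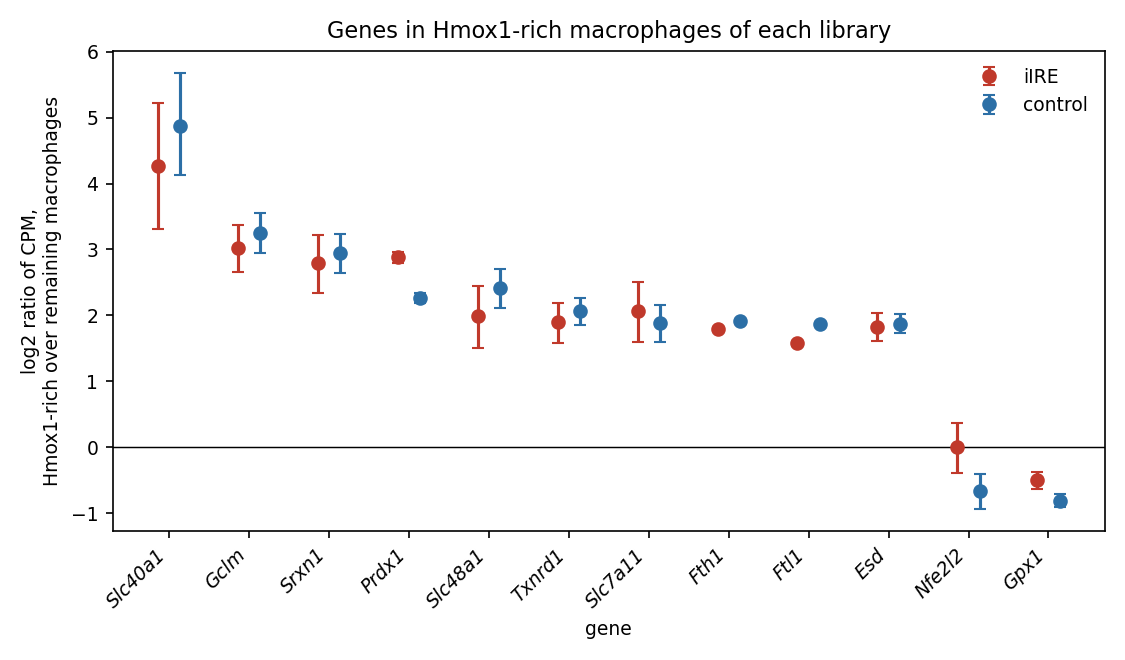
Log2 ratio of CPM in Hmox1-rich over remaining macrophages of the same library for 8 members and 4 further genes, iIRE left of control, with exact 95% intervals. Slc40a1 (4.27 in iIRE, 4.87 in control), Gclm (3.02, 3.25) and the other members down to Ftl1 lie above 0 in both libraries, while Nfe2l2 (0.00, -0.67) and Gpx1 (-0.50, -0.81) do not.

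Some genes outside the member list separated the same cells in both libraries, and others did not. Prdx1, the peroxiredoxin that NRF2 drives, had 5450 CPM in Hmox1-rich and 741 CPM in remaining iIRE macrophages, and 2993 CPM and 625 CPM in control macrophages. Slc48a1, which moves heme out of the phagolysosome, had 168 CPM and 42.2 CPM in iIRE, and 217 CPM and 40.8 CPM in control. Mmp12, the macrophage elastase, ranked 6 from the top in iIRE (842 CPM and 117 CPM) and 4 in control. Gpnmb was higher in Hmox1-rich cells of control (log2 2.06, 1.82 to 2.30) but not of iIRE (log2 -0.24, -0.91 to 0.36). Mmp9 was higher in those of control (log2 3.01) and lower in those of iIRE (log2 -2.37, on 2 UMIs in the Hmox1-rich cells). Gpx1, a selenium peroxidase, was lower in Hmox1-rich cells of both libraries, and so was Ccr2, the receptor of recruited monocytes, at 21.5 CPM and 158 CPM in iIRE and 32.5 CPM and 189 CPM in control. Median UMIs were 4557 in Hmox1-rich and 5904.5 in remaining iIRE macrophages, and 7090 and 6695 in control macrophages, and the part of depth in these ratios was not tested.

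Between the libraries, the Hmox1-rich macrophages differed in ferritin. Their class make-up differed too, and its part was not tested: Gpnmb macrophages were 5.88% of them in iIRE and 24.3% in control. Fth1 was 39287 CPM in iIRE and 51558 CPM in control (log2 -0.39, -0.42 to -0.36), past 1.2-fold, and Ftl1 25862 CPM and 28995 CPM (log2 -0.17), which is not. Of their Fth1 UMIs, the single highest cell held 12.7% in iIRE and 3.85% in control. In the class of other macrophages alone, Hmox1-rich cells had Fth1 at 37735 CPM in iIRE and 46917 CPM in control. Over all Hmox1-rich macrophages, the intervals of the other members included 0. Gclm was 340 CPM in iIRE and 267 CPM in control (log2 0.35, -0.02 to 0.71), Txnrd1 397 CPM and 401 CPM (log2 -0.01), Srxn1 218 CPM and 254 CPM (log2 -0.22) and Slc7a11 183 CPM and 204 CPM (log2 -0.16), while Slc40a1 gave log2 -0.43 (-1.22 to 0.30) and Nfe2l2 0.34 (-0.13 to 0.78). In the 50 iIRE and 33 control Gpnmb macrophages below the threshold, Gclm was 36.7 CPM and 40.8 CPM (13 and 10 UMIs, log2 -0.15, with an interval that includes 0), where the whole class gave -2.21. Srxn1 (log2 -0.78, -1.83 to 0.26) and Txnrd1 (log2 -0.66, -1.41 to 0.08) there had intervals that include 0 as well, on 16 and 19 and on 31 and 34 UMIs. Fth1 there was still lower in iIRE (log2 -0.56) and Ftl1 was higher (log2 0.24).

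In Lyve1 macrophages the other members differed less. Of 7 members tested, 2 were at least 1.2-fold lower in iIRE and none higher, 1 of them (Hmox1) with an interval below 0, where 20.6% of all genes were lower (5.74% with such an interval) and 22.4% higher (6.81%). Fth1 (13069 CPM in iIRE, 13887 CPM in control), Ftl1 (10224 CPM and 10548 CPM) and Txnrd1 (131 CPM and 138 CPM) were nearly level. Slc40a1 had 5 UMIs in 4 iIRE cells and 44 UMIs in 8 control cells, of which 41 lay in the 13 Hmox1-rich cells. The Hmox1 ratio of this class moved with the cells included: it was -0.46 without macrophages holding Ly6c2, Ccr2 or Plac8, at 427 CPM in the 67 iIRE and 588 CPM in the 64 control cells left, -0.86 without the 1 control cell with most Hmox1 and -1.09 without the 3 such cells of each library.

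In other macrophages, the largest class, 5 of 9 members were at least 1.2-fold lower in iIRE and 1 higher, all 6 with intervals that exclude 0, where 11.7% of all genes were lower and 21.9% higher (5.72% and 11.9% with such an interval). Besides Hmox1 the lower ones were Slc7a11 (55.8 CPM in iIRE, 79.6 CPM in control), Fth1 (11497 CPM and 15726 CPM), Srxn1 (37.4 CPM and 46.4 CPM) and Nfe2l2 (217 CPM and 268 CPM). Gclm ran the other way, at 55.0 CPM in iIRE and 37.7 CPM in control (269 and 201 UMIs, log2 0.54, 0.28 to 0.82). It did so in the cells below the Hmox1 threshold as well, at 41.6 CPM in 715 iIRE and 27.0 CPM in 683 control cells (log2 0.63, 0.30 to 0.96). Ftl1 (8513 CPM and 8704 CPM) and Txnrd1 (121 CPM and 118 CPM) differed by under 1.2-fold.

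**Figure D4:**
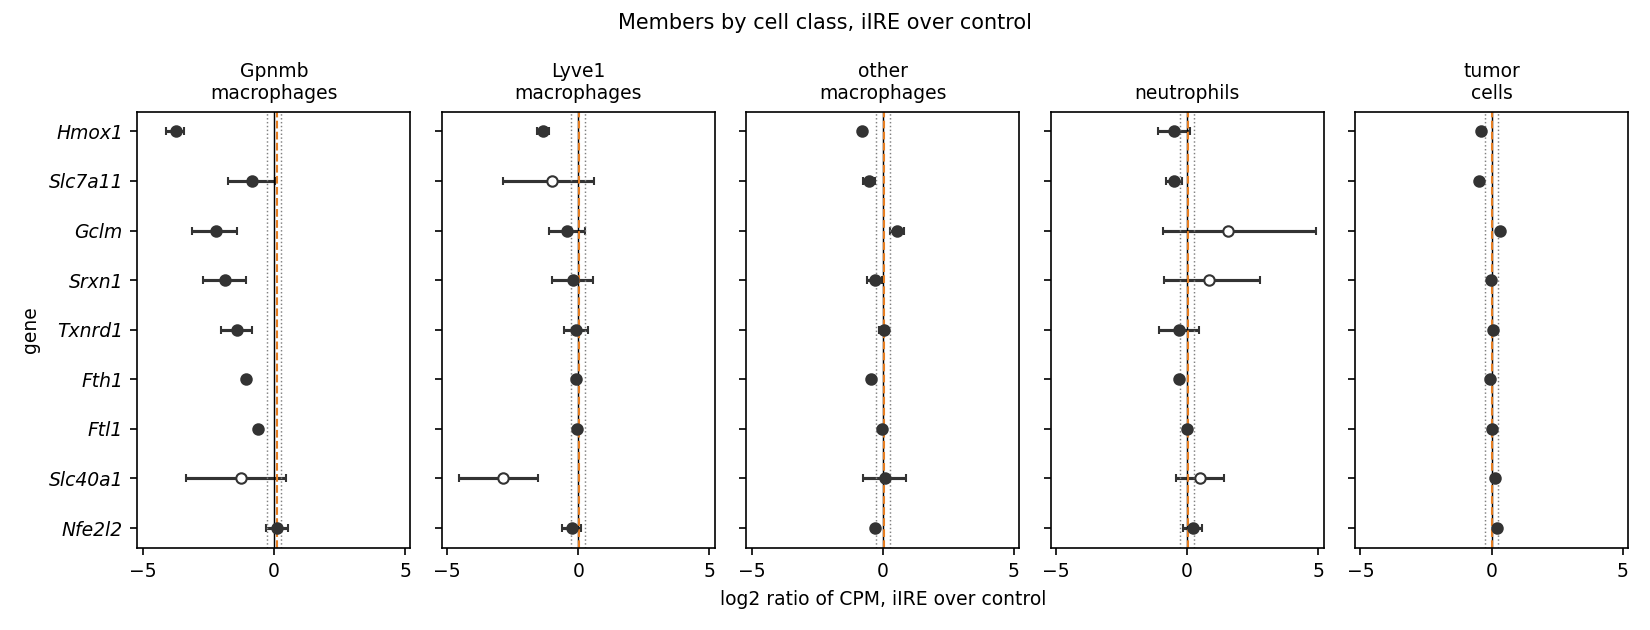
Log2 ratio of CPM, iIRE over control, of 9 members in 5 cell classes, with exact 95% intervals (counting error only, drawn within -5 and 5). Open points had under 50 UMIs, dotted lines mark 1.2-fold and the orange line is the median of all genes; Gpnmb macrophages hold the members farthest below 0, from Hmox1 (-3.75) to Ftl1 (-0.61), and Gclm is above 0 in other macrophages (0.54) and tumor cells (0.32).

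Neutrophils carried a different set of members. Slc7a11 was higher there than in any other class, at 879 CPM in iIRE and 1239 CPM in control (167 and 233 UMIs), 15.7 times and 15.6 times the level of other macrophages in the same library, with a UMI in 61.6% of iIRE and 66.4% of control neutrophils. It was lower in iIRE by log2 -0.50 (-0.79 to -0.20). Fth1 stood at 33112 CPM in iIRE and 41483 CPM in control (log2 -0.33), while Ftl1, at 8158 CPM and 8253 CPM, did not differ by 1.2-fold. Slc40a1 had 142 CPM in iIRE and 101 CPM in control on 27 and 19 UMIs, 25.7 times the level of other macrophages in iIRE. Nfe2l2, at 758 CPM and 654 CPM, was 3.49 times and 2.44 times the level of other macrophages. Of 6 members tested, 4 were lower in iIRE and none higher, 2 with an interval below 0 (Slc7a11 and Fth1), where 25.5% of all genes were lower (9.72% with such an interval) and 28.9% higher (11.7%). Neutrophils were shallow, with median UMIs of 1317 in iIRE and 1353 in control.

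Tumor cells held the lowest ferritin RNA of the 5 classes. Fth1 was 4389 CPM in iIRE and 4544 CPM in control, and Ftl1 3079 CPM and 3050 CPM. All 10 members were tested, of which 2 were at least 1.2-fold lower in iIRE, Hmox1 and Slc7a11 (8.19 CPM and 11.5 CPM, log2 -0.49), and 1 higher, Gclm (57.1 CPM and 45.7 CPM, log2 0.32), all with intervals that exclude 0, where 6.73% of all 15222 genes were lower and 10.2% higher (3.98% and 6.62% with such an interval). Slc40a1 was found in 28.4% of tumor cells of both libraries, at 37.2 CPM in iIRE and 33.7 CPM in control, above other macrophages (5.52 CPM and 5.26 CPM). Nqo1 had 37 UMIs in iIRE and 36 UMIs in control over all tumor cells (0.244 CPM and 0.211 CPM). Tumor cells without Krt8 or Krt18 UMIs had more Hmox1 than keratin-positive ones, at 80.4 CPM against 59.6 CPM in iIRE and 145 CPM against 75.1 CPM in control. Hmox1 at or above the macrophage threshold was found in 55 iIRE tumor cells (0.585%) and 100 control tumor cells (1.07%). In these, Srxn1 was again higher than in the remaining tumor cells, at 126 CPM against 26.8 CPM in iIRE and 90.3 CPM against 27.1 CPM in control.

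**Figure D5:**
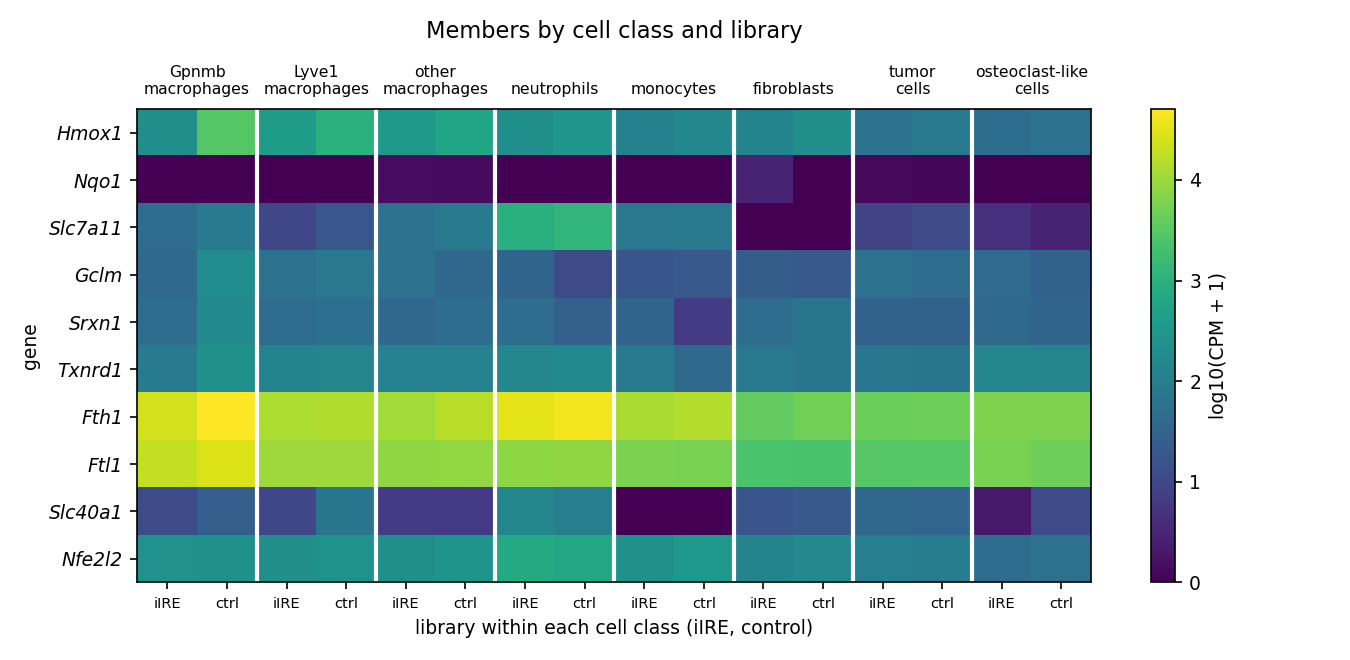
Level of each member as log10(CPM + 1) in 8 cell classes, iIRE left of control. Rows can be read along but not against each other; Hmox1 is brightest in control Gpnmb macrophages, Slc7a11 in neutrophils (879 CPM in iIRE, 1239 CPM in control), and Nqo1 is dark throughout.

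The smaller classes followed with less precision. Monocytes had Hmox1 at 114 CPM in iIRE and 154 CPM in control (67 and 56 UMIs, interval -0.96 to 0.11), below other macrophages by 2.99-fold and 3.81-fold. Txnrd1 was higher there in iIRE, at 85.2 CPM against 41.2 CPM (log2 1.05, 0.19 to 1.99). Nfe2l2 was lower in iIRE monocytes, at 230 CPM against 324 CPM (log2 -0.50, -0.86 to -0.13). Fibroblasts had Hmox1 at 129 CPM in iIRE and 222 CPM in control (log2 -0.78, -1.15 to -0.41), with 1 control cell holding 61.7% of the control UMIs. Without that cell control stood at 86.4 CPM, and the ratio was 0.58 (0.08 to 1.10) on the other side of 0. Fibroblasts had no Slc7a11 UMI in either library. Osteoclast-like cells, which share Gpnmb with the Gpnmb macrophages, had Hmox1 at only 48.8 CPM in iIRE and 55.4 CPM in control. Their Gclm was higher in iIRE, at 43.7 CPM against 27.4 CPM (log2 0.67, 0.11 to 1.26).

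Further genes of the same pathways were counted from 5 lists, chosen as the members were. In Gpnmb macrophages, 9 of 20 other NRF2 targets were tested, of which 5 were at least 1.2-fold lower in iIRE and 2 higher, with a median log2 ratio of -0.58. The lower ones were Esd (325 CPM in iIRE, 838 CPM in control), Prdx1 (999 CPM and 2307 CPM), Gstm1, Pgd and Taldo1. Sqstm1, the autophagy receptor that binds KEAP1, was 434 CPM in iIRE and 833 CPM in control, while Bach1 was level at 65.5 CPM and 65.3 CPM. Of heme genes 4 of 6 tested (66.7%) were higher in iIRE, where 36.7% of all genes were, among them Alas1 (log2 1.13), the first enzyme of heme synthesis, and Hmox2 (log2 0.85), the constitutive heme oxygenase, while Slc48a1 was lower, at 51.9 CPM in iIRE and 174 CPM in control. Of iron genes 2 of 5 were lower (40.0%, against 20.6% of all genes), neither with an interval below 0, and 1, transferrin (Trf, 751 CPM in iIRE and 440 CPM in control), higher. Of peroxide and ferroptosis genes 3 of 10 were lower and 2 higher, where 20.6% and 36.7% of all genes were, among them Gpx1 at 2600 CPM in iIRE and 1317 CPM in control.

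In the remaining classes the counts of these NRF2 targets were small. In other macrophages 1 of 16 was lower in iIRE and 5 higher (31.2%, against 21.9% of all genes), with Prdx1 at 892 CPM in iIRE and 714 CPM in control. In Lyve1 macrophages 4 of 10 were lower and 1 higher, in neutrophils 0 of 8 were lower and 3 higher (37.5%, against 28.9% of all genes), and in tumor cells 0 of 20 were lower and 2, Gstp1 and Prdx1, higher (10.0%, against 10.2% of all genes). The lower targets were 55.6% of those tested in Gpnmb and 40.0% in Lyve1 macrophages, where 20.6% of all genes were lower in each class. With an interval below 0 they were 5 of 9 in Gpnmb and 1 of 10 in Lyve1 macrophages. Of all genes, 9.51% and 5.74% were lower with such an interval.

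Across 16 points (8 classes in 2 libraries), the genes whose log2(CPM + 1) followed Hmox1 most closely among 13345 genes were Slc3a2 (Pearson r 0.838), the partner chain of Slc7a11, then Arl8a (0.830), Rnf115 (0.828), Ap3s1 (0.826), Cebpg (0.819), Gphn (0.789), Ftl1-ps1 (0.788) and Acox3 (0.786). Among the members Ftl1 (0.712) and Fth1 (0.676) came first and Srxn1 (0.550) next. The points of 1 library share its depth and preparation, so these values describe likeness only.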

How the data were processed

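Droplet 5′ scRNA-seq libraries, 1 of iIRE and 1 of control tumors, were counted by the authors with Cell Ranger against mm10, and the deposited values are raw UMI counts per gene and barcode, with both libraries in 1 matrix. The matrix header names Cell Ranger 7.0.1, while the methods name another version. Barcode endings were matched to libraries by the library numbers in the labels.

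Cells with at least 200 genes, 1000 UMIs and a quotient of the log10 gene and UMI numbers of at least 0.7, and at most 5% mitochondrial and 5% hemoglobin UMIs were kept, as in the study. Macrophages had at least 3 C1q UMIs and 4 of 10 macrophage genes. Gpnmb macrophages had at least 2 Gpnmb UMIs and no Lyve1, Lyve1 macrophages at least 1 Lyve1 UMI and at most 1 of Gpnmb. Neutrophils had 4 of 10 neutrophil genes. Tumor cells had at least 2 Cdkn2a UMIs, no Ptprc, at most 1 UMI of Tyrobp and Fcer1g, and at most 1 macrophage and 1 endothelial gene. DoubletFinder was not run: cells with markers of another class were left out instead. The 458 barcode sequences shared by the libraries, 139 of them among the 5 classes and 1 within the same non-tumor class, were kept as separate cells.

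UMIs were summed per class and library. CPM has exact Poisson 95% intervals, shares exact binomial (Clopper-Pearson) ones, and log2 ratios (the fold between libraries computed from the deposited counts) exact conditional ones. They cover counting error only, and UMIs bunched in few cells make them too narrow. A gene counted as lower or higher past 1.2-fold, the threshold of the study, with at least 50 UMIs over both libraries. A share of 0 is given with the limit that 3 counts allow. All 10 members were reported in classes with at least 30 cells per library. From each list the 2 genes with the highest CPM and the 2 with the largest and smallest ratios could be named, and for likeness the 8 nearest genes with at least 200 UMIs and in no gate. Genes named outside this rule (those of the Hmox1-rich cells, Gstm1, Pgd, Taldo1) were chosen after their values were seen. Members and lists were chosen with earlier results of these data known. The ratio and its interval were tested on simulated data. Positions are from GENCODE M21. Python 3.11.15, numpy 2.4.6, scipy 1.17.1, pandas 2.3.3 and matplotlib 3.10.9 were used.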

Additional observations from a re-analysis of the deposited data

Results flagged for a closer look

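Gclm took opposite directions between classes. Its log2 ratio, iIRE over control, was -2.21 in Gpnmb macrophages (41.0 CPM in iIRE, 189 CPM in control, with -2.88 to -1.05 over the alternatives), 0.54 in other macrophages (55.0 CPM and 37.7 CPM) and 0.32 in tumor cells (57.1 CPM and 45.7 CPM). It was picked out because the intervals of these classes lie on opposite sides of 0. The difference between the classes was not tested, since each group has 1 library.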

How the results depend on the processing

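No paired analysis was possible because each group has 1 library. The log2 ratio of Hmox1 kept its direction under every alternative run in the 5 main classes: -3.87 to -2.74 in Gpnmb macrophages, -1.38 to -0.46 in Lyve1 macrophages and -0.98 to -0.46 in other macrophages (16 alternatives each), -0.58 to -0.10 in neutrophils (9) and -0.47 to -0.34 in tumor cells (10). Where a value moved, the cause was not tested. The share over all genes was not computed under the alternatives, so member counts here and in the next paragraph have none beside them. The mean of per-cell CPM gave -3.26 in Gpnmb macrophages, -0.46 in other macrophages and -0.47 in tumor cells, with 4 members lower in Lyve1 macrophages. Keeping cells with markers of another class gave -2.84 in Gpnmb (Gclm there -1.05 against -2.21, Txnrd1 -0.54 against -1.40) and -0.68 in other macrophages, with 2 members higher in other macrophages and 2 lower in neutrophils. Gpnmb macrophages gave -3.25 with 1 Gpnmb UMI (other macrophages -0.59, and 4 members lower in Lyve1 macrophages) and -2.74 where Lyve1 needed 2 UMIs (Lyve1 macrophages -0.91, Gclm there 0.045). With 4 Gpnmb UMIs, Lyve1 macrophages gave -0.78 and other macrophages -0.92, and a stricter macrophage gate gave -0.98 in other macrophages. Without the tenth of cells with most UMIs, Lyve1 macrophages gave -0.86 with 1 member lower and Gclm at 0.028 against -0.42, and 1 member was higher in neutrophils. With 10 CPM added, tumor cells gave -0.34 with 1 member lower, and with 10% mitochondrial UMIs allowed, 2 members were higher there. At 1.5-fold, 1 member was lower in Lyve1 and 1 in other macrophages, 0 in neutrophils and 0 in tumor cells, and 0 were higher in other macrophages and tumor cells.

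Some alternatives were chosen after seeing the data. Without the 3 cells with most Hmox1, the ratio was -1.09 in Lyve1 and -0.68 in other macrophages. Without the 1 control cell with most Hmox1 it was -0.86 in Lyve1 and -0.59 in other macrophages, and it turned to 0.58 in fibroblasts, against -0.78. Without that cell of each library it was -0.17 in fibroblasts. Without macrophages holding Ly6c2, Ccr2 or Plac8 it was -0.46 in Lyve1 macrophages (1 member higher, 1 lower, Gclm 0.33) and -0.96 in other macrophages. In macrophages of 3000 to 10000 UMIs it was -1.12 and -0.91. The share of Hmox1-rich cells, iIRE minus control, at a threshold of 5000 CPM was -20.3 percentage points in Gpnmb macrophages, against -38.4 at 1000 CPM, and -2.22 over all macrophages, against -6.23. Gpnmb macrophages number 53 and 59 cells, so ratios of members with under 50 UMIs there are not read, and a gene without UMIs was not detectable at this depth.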
